A study of Mus musculus with 20 samples.

Results

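Cell cycle and DNA replication genes were examined in the cecum of 20 mice fed increasing amounts of raw potato starch (RPS). The group was a given list of 44 gene symbols, found by gene identifier in a table of 19887 genes, and all 44 were among the 15348 genes with enough reads to be tested. By their roles, 6 act at the passage from G1 to S phase, 18 in DNA replication, and 20 in G2 and mitosis. Every mouse was of the C57BL/6 strain and ate the Total Western Diet (TWD), a rodent diet that follows the nutrient intake of Americans, for 6 weeks from 3 weeks of age. The mice then ate for 3 more weeks either the TWD alone (0% RPS) or the TWD with 2, 5, or 10% RPS by weight, with 5 mice per diet. RPS is a starch that resists digestion in the small intestine and is fermented by bacteria in the cecum. Each library was made from the RNA of 1 mouse's cecum and held between 14967798 and 42687283 reads counted on genes. The labels name no allele, drug, or cell sort and no difference between the groups other than diet, and each value is a mixture of all the cells of the cecum wall. In such a mixture, a change in the number of cells of a type and a change in the RNA per cell cannot be told apart.

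A cell that divides first passes from G1 to S phase, when D and E cyclins release the E2F transcription factors that turn on replication genes. Origins are licensed before S phase, when CDC6 and CDT1 load the MCM helicase onto DNA. Geminin, the product of Gmnn, binds CDT1 and prevents loading again in the same cycle. After replication, the B cyclins with CDK1, the aurora and polo kinases, and kinesin motors drive mitosis. In the large intestine the dividing cells lie at the base of the crypts, and the surface cells that face the lumen no longer divide. Germinal center B cells in lymphoid tissue of the cecum wall also divide, so more than 1 kind of cell can supply these transcripts.

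All 44 genes were expressed in all 20 mice. Counts for a single mouse ranged from 14 reads for Gins2, a subunit of the GINS complex of the replication helicase, to 4712 reads for Pcna, the sliding clamp of the DNA polymerases. Per kb of exon, with the average over all mice in CPM (reads scaled to the same library size) per kb, Pcna was highest at 44, followed by Plk1, a mitotic kinase, at 17.6 and Rrm2, the small subunit of ribonucleotide reductase, at 15.8. On the same scale the lowest levels were 0.308 for Gins2, 0.504 for Ccne2 (cyclin E2), 0.550 for Chek1 (a checkpoint kinase), and 0.600 for Cdt1. The licensing factor Cdt1 was therefore measured on few reads, between 22 and 120 per mouse, while its inhibitor Gmnn stood at 8.20 CPM per kb. Exons of 22 of the 44 genes shared bases with another annotated gene, and for 14 of them the part shared with other genes together was at least 10% of the exon bases. The largest shares with a single gene were 67.3% for Gins2 (with Gse1), 54.8% for Kif20a (with Cdc23), 48.4% for Ccnd1, and 43.3% for Rrm2 (with the long noncoding RNA Gm59512), all with genes on the opposite strand. Cdt1, Mki67, Mcm2, Mcm6, and Ccnb1 shared no exon bases with another gene.

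The sequence at the start of each gene was read for the DNA motifs known from this gene class. E2F factors bind octamers of the form TTTCCCGC, TTTGGCGC, TTTCGCGC, or TTTGCCGC, the cell cycle homology region (CHR) that recruits the MuvB complex at mitotic genes reads TTTGAA, and CCAAT binds the factor NF-Y. Both strands were searched from 250 bases before to 50 bases after the start of the GENCODE canonical transcript on GRCm39, and matches of different motifs may share bases. An E2F octamer was found at 8 of the 18 replication genes (44.4%) and at 1 of the 20 mitosis genes (5.0%), against 3.51% of the 14974 tested protein-coding genes. The CHR letters were found at 10 of the 20 mitosis genes (50%) and at 2 of the 18 replication genes (11.1%), against 13.9% of all tested protein-coding genes. CCAAT was found at 66.7% of the replication and 70.0% of the mitosis genes, against 38.9% overall. A match is a description of the letters only. E2F letters were thus found more often at the replication genes and CHR letters more often at the mitosis genes, a feature that the choice of the genes did not use and that was not tested.

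Cdt1, the gene with the smallest p over the diets, is shown first with the 200 bases before its start, in which none of the 3 motifs was found, and then with the 30 bases that hold its only E2F octamer, at positions 39 to 46 after the start. Gmnn and the 3 replication genes of highest CPM with a match follow, then Rrm2, the replication gene with the next smallest p, and the 3 mitosis genes of highest CPM with a CHR match. Capitals mark the motif, and each line reads 5′ to 3′ on the strand named, which is the one that holds the letters of the motif.
Cdt1, before the start, chr8:123294548-123294747, plus strand: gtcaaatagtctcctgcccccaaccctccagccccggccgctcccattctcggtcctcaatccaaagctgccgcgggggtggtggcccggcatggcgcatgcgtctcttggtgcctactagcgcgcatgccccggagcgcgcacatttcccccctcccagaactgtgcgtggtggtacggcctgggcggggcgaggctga
Cdt1, E2F, chr8:123294768-123294797, plus strand: atccgcgggaactaccttTTTGGCGCcatg
Gmnn, E2F, chr13:24946127-24946156, minus strand: tctcgtgTTTGCCGCtagtgagagtctctt
Mcm6, E2F, chr1:128287471-128287500, minus strand: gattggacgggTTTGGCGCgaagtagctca
Mcm3, E2F, chr1:20890499-20890528, plus strand: acttcccaagtTTTCCCGCcacggaagttt
Mcm5, E2F, chr8:75835977-75836006, minus strand: aggctggacgtTTTGGCGCgaaagttcttg
Rrm2, CHR, chr12:24757813-24757842, plus strand: ccccttcatgagTTTGAAgacagcttttta
Top2a, CHR, chr11:98915021-98915050, plus strand: tccctagtttcaTTTGAAcctttatctagc
Plk1, CHR, chr7:121758666-121758695, plus strand: ttgtaacgttcccagcgccgcgTTTGAAtt
Ube2c, CHR, chr2:164611808-164611837, minus strand: ccgccgcccgcgTTTGAAttgcaaccctcc
Rrm2 thus carried the CHR letters and no E2F octamer although it belongs with the replication genes, and Cdt1 and Gmnn carried an E2F octamer and no CHR.

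With 10% RPS, Cdt1 rose 1.83-fold and was the only 1 of the 44 genes past the threshold, while the other 43 stayed within 1.5-fold of the mice fed the TWD alone. The question was whether the cell cycle genes as a group shift with dose, and the threshold was an adjusted p of at most 0.05 with a fold change of at least 1.5. The replication genes Mcm6 (up), Rrm2 (down), and the proliferation marker Mki67 (up) had an unadjusted p under 0.05 and did not pass after adjustment. Past the threshold were 1.04% of all tested genes, 0.547% of them higher and 0.495% lower. By edgeR's unadjusted p under 0.05, 3 of the 44 were higher and 1 was lower, against 9.74% higher and 9.75% lower among all tested genes. Scaled by library size alone, which moved the median log2 fold change of all genes by 0.089, 7 of the 44 had such a p in either direction. The shares above belong to the main scaling, and the share of all genes under library size alone was not counted. The median log2 fold change was 0.07 over the 44 genes and 0.0041 over all tested genes. An estimate above 0 was found for 30 of the 44 genes and for 50.9% of all genes. The 95% interval of the fold change lay within 2-fold for 43 of the 44 genes and within 1.5-fold for 31.

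**Figure D1:**
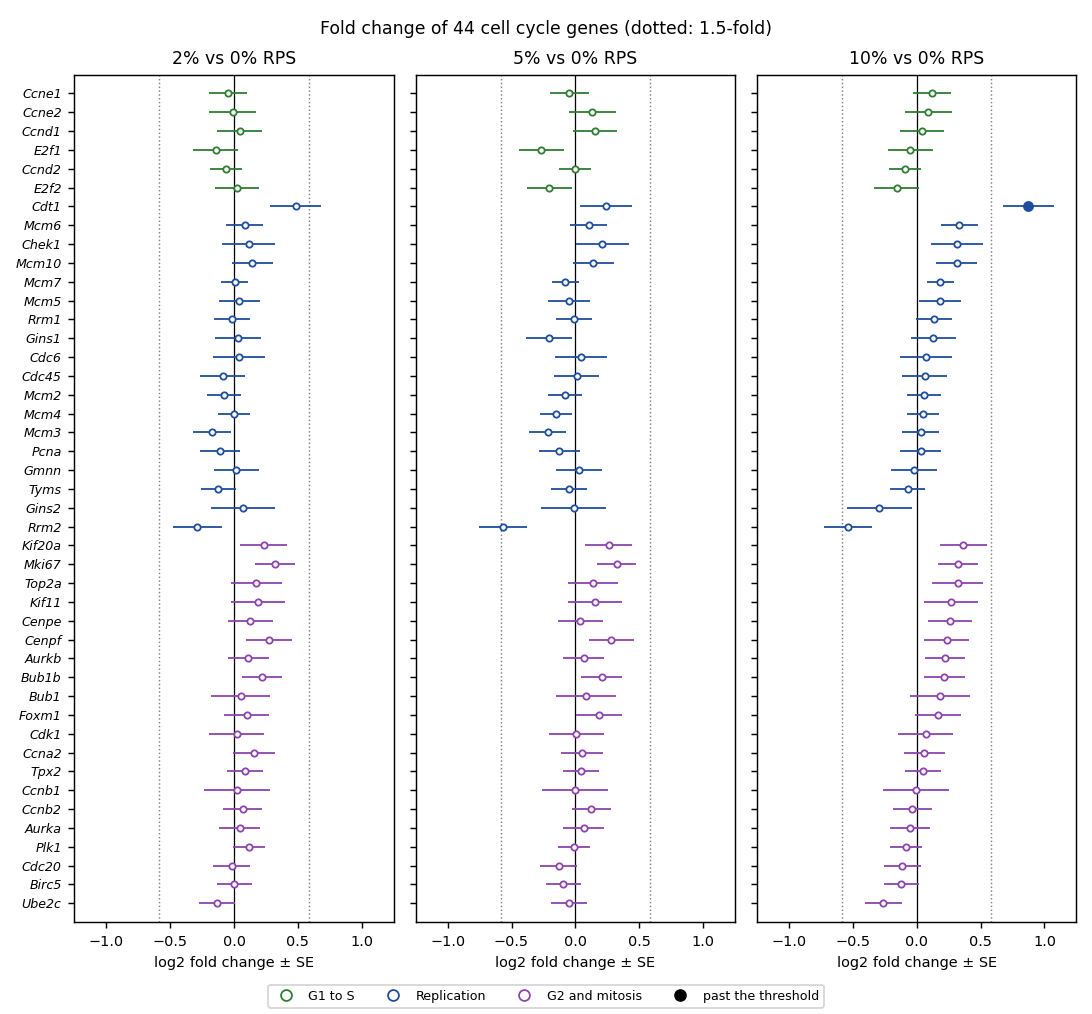
Log2 fold change against 0% RPS for the 44 genes with 2, 5, and 10% RPS, as points with bars of ± 1 standard error, colored by role and ordered within each role by the change with 10% RPS. Dotted lines mark a 1.5-fold change, and the single filled point, Cdt1 with 10% RPS at 0.87, is the only value past the threshold.

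Cdt1 (ENSMUSG00000006585, chr8:123294703-123300293 on GRCm39) loads the MCM helicase. In mice 1 to 5 fed 0% RPS its level was 1.17, 1.43, 1.16, 1.78, and 1.64 CPM. With 10% RPS the levels were 2.54, 3.10, 2.62, 2.21, and 2.70 CPM. All mice fed 10% RPS lay above all mice fed 0% RPS, which was so for 1.68% of all tested genes. The means were 1.44 ± 0.275 and 2.64 ± 0.318 CPM (SD, n = 5), and the log2 fold change was 0.87 ± 0.20 (SE) with an adjusted p of 0.0328 by edgeR's quasi-likelihood test with Benjamini-Hochberg adjustment. With 2% RPS the levels were 1.80, 1.53, 2.55, 2.22, and 1.93 CPM, and with 5% RPS they were 2.30, 1.96, 1.40, 1.10, and 1.70 CPM. Both of these diets overlapped the 0% group, and the order of the means was 0, 5, 2, and 10% RPS rather than that of the dose. The log2 fold change was 0.48 with 2% RPS (edgeR unadjusted p = 0.028, adjusted p = 0.849) and 0.24 with 5% RPS (adjusted p = 0.683). The call with 10% RPS was lost when any 1 of 8 mice was left out, with adjusted p from 0.0533 to 0.0963 in those 8 fits, while the log2 fold change stayed between 0.81 and 0.97 over all 20 fits. It was also lost when the change was tested against 1.5-fold rather than 0 (unadjusted p = 0.0249, adjusted p = 1).

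Gmnn, whose product geminin holds CDT1 in check, had overlapping levels in all 4 diets. With 0% RPS Gmnn was at 19.1, 22.5, 23.7, 28.8, and 18.4 CPM, and with 10% RPS at 24.7, 24.9, 16.8, 20.2, and 24.3 CPM. The ranges overlapped almost completely, and the log2 fold change was -0.02, with a 95% interval from -0.39 to 0.36. The levels were 23.9, 20.8, 15.5, 27.8, and 25.9 CPM with 2% RPS and 26.9, 25.2, 22.3, 13.8, and 26.7 CPM with 5% RPS. Within each mouse, the log2 ratio of Cdt1 to Gmnn was -3.95, -3.91, -4.27, -3.97, and -3.44 with 0% RPS and -3.24, -2.98, -2.65, -3.15, and -3.14 with 10% RPS. Every mouse fed 10% RPS had a higher ratio than every mouse fed 0% RPS. The mean was -3.91 ± 0.30 with 0% RPS and -3.03 ± 0.23 with 10% RPS (SD, n = 5), a difference of 0.87 that repeats the change of Cdt1 beside an estimate of Gmnn near 0 and is given with no test. The means were 0.45 higher with 2% RPS and 0.19 higher with 5% RPS than with 0% RPS.

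The rest of the replication group showed a spread of small estimates on both sides of 0. The helicase subunits Mcm2 to Mcm7 had log2 fold changes with 10% RPS from 0.03 for Mcm3 to 0.33 for Mcm6, with adjusted p of at least 0.213 by edgeR. Mcm2 was at 27.1, 27.7, 27.2, 36.2, and 32.2 CPM with 0% RPS and 33.3, 32.2, 24.0, 30.4, and 36.2 CPM with 10% RPS, which overlap throughout. With 2% RPS it was at 26.2, 25.2, 37.1, 29.6, and 24.3 CPM, and with 5% RPS at 31.0, 33.8, 23.1, 28.8, and 25 CPM. Mcm6 was at 43.7, 37.8, 44.5, 56.2, and 37.5 CPM with 0% RPS and 63.4, 64.9, 40.2, 48.7, and 59.5 CPM with 10% RPS. For Mcm6, 3 of the 5 mice fed 10% RPS lay above all of the controls, and mice 3 and 4 lay among them. Pcna was at 117, 103, 110.0, 135, and 81.7 CPM with 0% RPS and 113, 122, 88.6, 114, and 120.5 CPM with 10% RPS, a log2 fold change of 0.03. The polymerase clamp therefore showed no difference beyond its spread, and its 95% interval ran from -0.30 to 0.36. With 2% RPS Pcna was at 109.6, 103, 73.1, 126, and 94.8 CPM, and with 5% RPS at 121, 120.3, 96.1, 68.3, and 94.7 CPM.

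Rrm2, which makes the deoxynucleotides for replication, had the lowest estimate of the 44 genes. Its level with 0% RPS was 75.3, 53.8, 59.7, 79.2, and 60.5 CPM, and with 10% RPS it was 51.5, 51.4, 29.8, 48.6, and 45.0 CPM. All mice fed 10% RPS lay below all mice fed 0% RPS, which was so for 3.2% of all tested genes, although mice 1 and 2 of the 10% group were close to mouse 2 of the controls. The means were 65.7 ± 11 and 45.2 ± 9.05 CPM (SD, n = 5). The log2 fold change was -0.54 ± 0.19 (SE), with an unadjusted p of 0.00994 and an adjusted p of 0.130 by edgeR, so Rrm2 did not pass. With 2% RPS it was at 64.5, 49.9, 43.8, 68.3, and 43.0 CPM, and with 5% RPS at 60.0, 55.1, 39.6, 31.2, and 35.8 CPM. Both of these diets overlapped the controls, and the log2 fold changes were -0.29 and -0.56 (adjusted p = 0.170 with 5% RPS). Rrm1, the large subunit of the same enzyme, had a log2 fold change of 0.14 with 10% RPS (adjusted p = 0.627), and Tyms, which makes thymidylate, one of -0.07. Since 43.3% of the exon bases of Rrm2 lie opposite to another gene and whether strand was used in counting is not given in the sources used here, its values may hold reads of that gene.

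**Figure D2:**
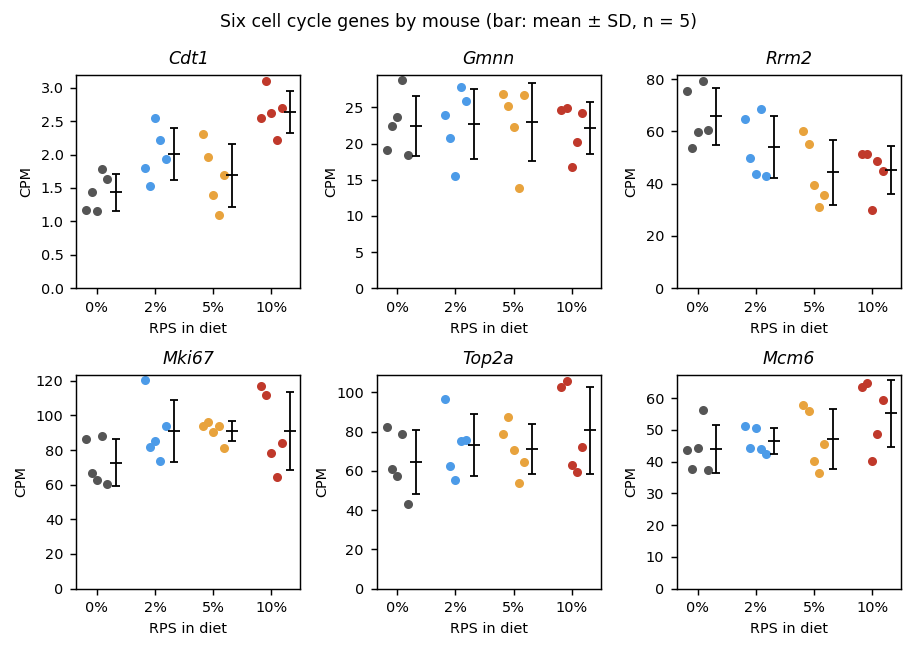
CPM in each mouse (dots, 5 per diet) for Cdt1, Gmnn, Rrm2, Mki67, Top2a, and Mcm6, with the mean and SD of each diet as a bar. For Cdt1 the 10% group (2.21 to 3.10 CPM) lies above the 0% group (1.16 to 1.78 CPM), for Rrm2 it lies below, and for the other 4 genes the groups overlap.

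The mitosis genes had small estimates, more of them above 0 than below, and none passed by edgeR. With 10% RPS, 13 of the 20 were above 0, 1 had an unadjusted edgeR p under 0.05, and 0 passed, where 50.9% of all genes were above 0 and 19.5% had such a p. Their median log2 fold change was 0.12. Mki67, the antigen by which dividing cells are commonly stained, was at 86.3, 66.7, 62.4, 88.0, and 60.5 CPM with 0% RPS and 117, 112, 78.2, 64.3, and 84.1 CPM with 10% RPS. Mice 1 and 2 of the 10% group stood above all controls and mice 3 to 5 stood among them. It was at 120.4, 81.9, 85.2, 73.9, and 93.6 CPM with 2% RPS and at 93.6, 95.9, 90.6, 94.1, and 81.1 CPM with 5% RPS. The log2 fold change was 0.32 with each of the 3 diets, whose comparisons share the 5 control mice, and the edgeR adjusted p was 0.256 with 10% RPS. With 10% RPS its unadjusted edgeR p was 0.0498, and its 95% interval ran from 0.00027 to 0.64. Top2a, the topoisomerase that untangles sister chromatids, was at 82.6, 61.1, 57.5, 79.0, and 43.1 CPM with 0% RPS and 103, 106, 63.2, 59.7, and 71.9 CPM with 10% RPS. As for Mki67, mice 1 and 2 of the 10% group were high and the remaining mice overlapped the controls (log2 fold change 0.32, adjusted p = 0.382). With 2% RPS Top2a was at 96.6, 62.4, 55.1, 75.3, and 75.6 CPM, and with 5% RPS at 79.0, 87.5, 70.5, 53.9, and 64.6 CPM.

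Ccnb1 encodes cyclin B1, the partner of CDK1 at entry into mitosis. It was at 22.9, 19.2, 18.5, 24.6, and 9.98 CPM with 0% RPS and 24.1, 24.9, 14.5, 14.2, and 16.8 CPM with 10% RPS. The 2 groups had nearly equal means, and the log2 fold change of -0.01 changed sign with the scaling or with a mouse left out. With 2% RPS Ccnb1 was at 29.1, 17.8, 10.2, 19.2, and 20.6 CPM, and with 5% RPS at 23.6, 21.7, 18.5, 12.5, and 18.5 CPM. Kif20a, a kinesin of cytokinesis, was at 10.1, 9.44, 6.23, 9.40, and 7.32 CPM with 0% RPS and 14.1, 14.9, 8.41, 8.25, and 8.89 CPM with 10% RPS. Again mice 1 and 2 stood above the controls and the others did not (log2 fold change 0.36, edgeR adjusted p = 0.278), and 54.8% of the exon bases of Kif20a are shared with Cdc23 on the other strand. With 2% RPS Kif20a was at 11.6, 7.79, 12.3, 9.29, and 8.91 CPM, and with 5% RPS at 8.90, 11.4, 10.3, 10.9, and 9.28 CPM. At the other end, Ube2c, the ubiquitin carrier of the anaphase-promoting complex, had a log2 fold change of -0.26 with 10% RPS (adjusted p = 0.318), and its coactivator gene Cdc20 one of -0.11.

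The 6 genes of the passage from G1 to S phase had estimates close to 0. Their median log2 fold change with 10% RPS was -0.0038, none had an unadjusted p under 0.05 by edgeR, and the lowest adjusted p was 0.661. Ccnd1, which encodes cyclin D1, was at 29.7, 15.1, 14.4, 21.4, and 19.3 CPM with 0% RPS and 24.6, 18.8, 21.2, 15.8, and 22.4 CPM with 10% RPS. The spread of the 5 controls covered all of the mice fed 10% RPS. With 2% RPS it was at 19.7, 19.5, 26.5, 19.7, and 17.7 CPM, and with 5% RPS at 19.2, 24.4, 18.7, 28.2, and 20.6 CPM. E2f1, a transcription factor that turns on replication genes, was at 7.68, 8.16, 9.72, 11.3, and 14.1 CPM with 0% RPS and 11.4, 10.6, 7.65, 8.91, and 10.7 CPM with 10% RPS. The log2 fold change was -0.05 (95% interval from -0.42 to 0.32). With 2% RPS E2f1 was at 7.69, 7.48, 12.7, 10.3, and 7.96 CPM, and with 5% RPS at 10.0, 7.43, 7.23, 9.06, and 8.62 CPM. Its relative E2f2 was at 48.3, 43.7, 30.5, 55.0, and 43.2 CPM with 0% RPS and 40.4, 45.4, 38.6, 35.6, and 37.8 CPM with 10% RPS, a log2 fold change of -0.16 within the spread of the mice. With 2% RPS E2f2 was at 52.9, 29.9, 34.7, 68.4, and 38.5 CPM, and with 5% RPS at 36.2, 38.4, 39.3, 41.0, and 36.6 CPM.

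The lower doses gave no call among the 44 genes. With 5% RPS, edgeR called 0 of the 44, where 0.195% of all genes were past the threshold, and DESeq2 also called 0, where it called 1.57% of all genes. By edgeR's unadjusted p under 0.05, Mki67 was higher and Rrm2 lower, against 6.74% of all genes higher and 6.54% lower. With 2% RPS, edgeR and DESeq2 called 0 of the 44, edgeR called 0% and DESeq2 0.0326% of all genes, and Cdt1 alone had an unadjusted edgeR p under 0.05, against 2.58% of all genes higher and 3.19% lower. The median log2 fold change over the 44 genes was 0.02 with 5% RPS and 0.04 with 2% RPS, against -0.0018 and 0.0035 over all tested genes. When a straight line was fitted over the RPS percentage, 1.11% of all genes passed an adjusted p of 0.05, and edgeR called 0 of the 44. At an unadjusted p under 0.05, the slope was above 0 for Cdt1 (adjusted p = 0.0683) and Mcm6 (adjusted p = 0.187) and below 0 for Rrm2 (adjusted p = 0.141), against 9.37% of all genes rising and 9.47% falling. Over any difference between the diets, 0.0912% of all genes passed, and edgeR called 0 of the 44, of which Cdt1 and Rrm2 had an unadjusted p under 0.05, as 11.1% of all genes did. DESeq2 called 1 of the 44, Cdt1, in the trend, where it called 4.6% of all genes, and in the test over any diets, where it called 3.08%.

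**Figure D3:**
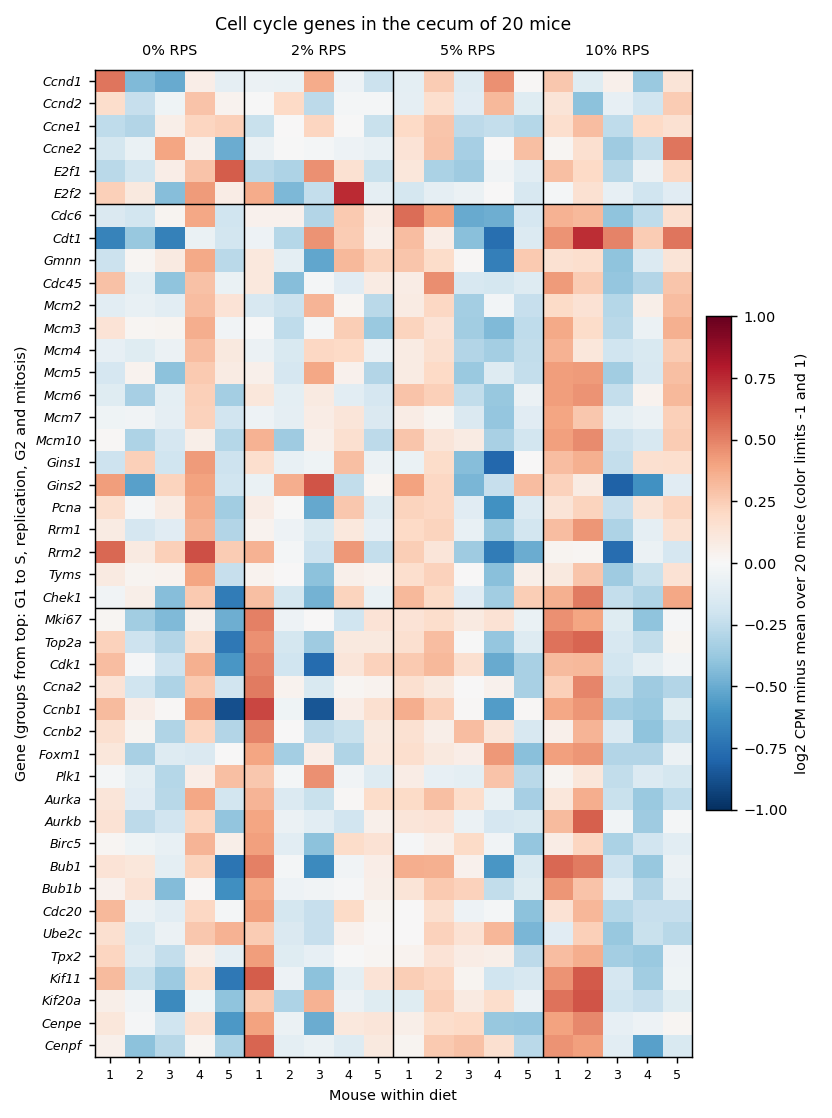
Log2 CPM of the 44 genes (rows, in the order G1 to S, replication, and mitosis) in the 20 mice (columns by diet), with the mean of each gene over all mice subtracted and colors limited to -1 and 1. Most mitosis rows are red in mice 1 and 2 on 10% RPS and mouse 1 on 2% RPS, and Cdt1 is above its mean, by unequal amounts, in all 5 columns with 10% RPS.

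A module score, the mean over the 44 genes of log2 CPM after subtraction of each gene's average over the 20 mice, varied far more between mice than between diets. It ran from -0.21 to 0.23 in mice fed 0% RPS, from -0.11 to 0.22 with 2% RPS, from -0.19 to 0.18 with 5% RPS, and from -0.24 to 0.31 with 10% RPS. The diet means differed by at most 0.08, the difference between 10 and 0% RPS, which was 0.17 when scaled by library size alone and ran from 0.014 to 0.15 with 1 mouse left out, and the SD within a diet was between 0.14 and 0.26 (n = 5). Within the 10% group, mice 1 and 2 had the highest scores of all 20 mice, at 0.28 and 0.31, and mouse 3 had the lowest, at -0.24. Against 0% RPS, the replication score was 0.10 higher with 10% RPS and the mitosis score 0.09 higher, and the score of the G1 to S genes was 0.0022 higher. The replication score minus the mitosis score differed from that with 0% RPS by 0.0030 with 10%, by -0.10 with 2%, and by -0.15 with 5% RPS, beside SDs of 0.13 to 0.23 within a diet. With 1 mouse left out these differences ran from -0.064 to 0.046, from -0.15 to -0.014, and from -0.21 to -0.083, respectively. These scores are descriptions and carry no test, since the list was given with earlier results known.

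Cdt1 stood apart from its own group in the mice fed 10% RPS. The centered log2 CPM of Cdt1 minus the mean of the other 17 replication genes was -0.68, -0.28, -0.57, -0.40, and -0.02 in mice 1 to 5 fed 0% RPS. In those fed 10% RPS it was 0.15, 0.44, 0.82, 0.37, and 0.32. With 2% RPS it was -0.13, -0.17, 0.49, 0.11, and 0.15, and with 5% RPS it was 0.09, -0.14, -0.18, -0.33, and -0.04. The 0% values were all below 0 and the 10% values all above 0, the 2% values overlapped both, and the 5% values overlapped the 0% values and lay below all of the 10% values. Mouse 3 on 10% RPS had the lowest replication score of its group (-0.29) and the highest Cdt1 relative to it. Because the other replication genes are subtracted, a low replication score raises this value by construction. The mean differences from 0% RPS were 0.81 with 10%, 0.48 with 2%, and 0.27 with 5% RPS.

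**Figure D4:**
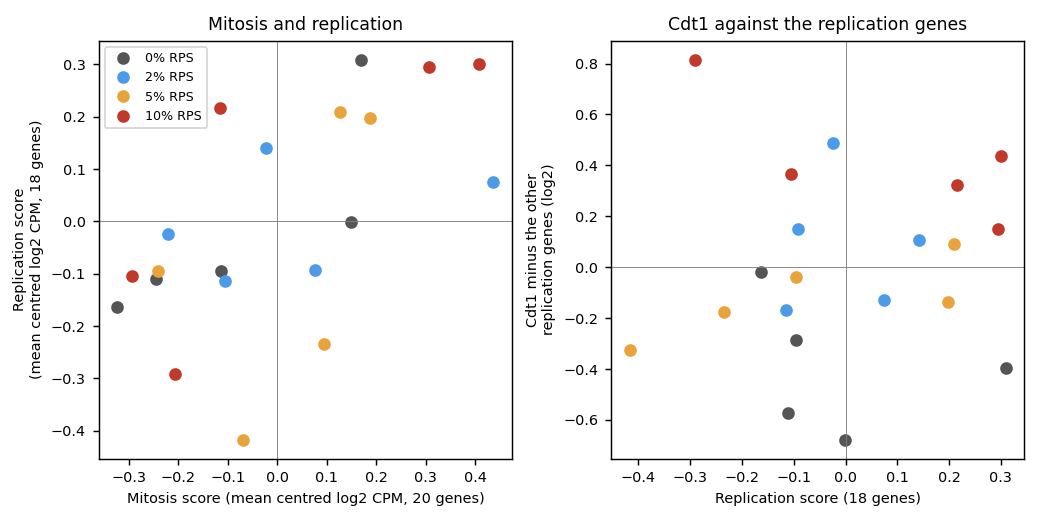
Left, replication score against mitosis score in each of the 20 mice (mean centered log2 CPM over 18 and 20 genes). Right, Cdt1 minus the other replication genes (log2) against the replication score. Diets are mixed in the left panel, and on the right all 5 mice fed 10% RPS (0.15 to 0.82) lie above all 5 fed 0% RPS (-0.68 to -0.02).

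Within diets the mitosis genes and the replication genes varied together from mouse to mouse, and the G1 to S genes did so little. After subtraction of the diet means, the median Pearson r was 0.74 over the 190 pairs of mitosis genes, 0.66 over the 153 pairs of replication genes, and 0.44 over the 360 pairs across these groups. It was 0.10 over the 15 pairs of G1 to S genes. Cdt1 had a median r of 0.48 with the other replication genes and 0.11 with the mitosis genes, while Gmnn had 0.60 and Rrm2 0.67 with the other replication genes. By median r with the other 43 genes, Rrm1 (0.69), Top2a (0.68), and Cdc20 (0.66) were the most typical, and E2f1 (0.09), Ccnd2 (0.11), and Ccnd1 (0.17) the least. These values describe 20 mice whose libraries share depth and tissue makeup across genes, and they carry no p.

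Mki67 was set against single genes of the cycle or of a cell type over the 20 mice, with p adjusted over 11 pairs, of which 10 are given. With Top2a, Pearson's r was 0.80 (permutation p = 4e-05, adjusted p = 0.00044 over 11 pairs) and Spearman's rho was 0.72 (permutation p = 0.00052). With the diet means subtracted r was 0.81, and without the 2 mice farthest from the median of Mki67 it was 0.71 (permutation adjusted p = 0.0118), while rho was then 0.62 (permutation adjusted p = 0.0826), so the relation held by r and not by rho. With Lgr5, the marker of crypt stem cells, r was 0.61 (permutation p = 0.00384, adjusted p = 0.0211) and rho 0.57 (permutation p = 0.00974, adjusted p = 0.0536). Within diets the r with Lgr5 was 0.66, and without the 2 farthest mice it was 0.42 (permutation adjusted p = 0.230), so this relation did not hold without those mice. For the other 8 genes given, r was between -0.11 and 0.47 with permutation adjusted p of at least 0.141. Among them were the replication genes Mcm2 (0.08), Cdt1 (0.30), and Cdc6 (0.37), the epithelial gene Epcam (-0.11), the surface cell gene Krt20 (-0.10), and the smooth muscle gene Myh11 (0.16).

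With 10% RPS, 3 genes that restrain the cycle fell. They belong to a list of 16 CDK inhibitors and genes of the p53 and growth arrest response, not all of which restrain the cycle. Of these 15 were tested, 3 fell past the threshold, where 0.495% of all genes did, and 0 rose by edgeR, where 0.547% did. In addition 3 had an unadjusted p under 0.05 in the upward direction, where 9.74% of all genes did, among them Gadd45b at a log2 fold change of 0.56 (adjusted p = 0.0623). DESeq2, which called 2.4% of all genes in either direction, gave the same call for the 3 that fell. The median over the list was -0.07 (0.0041 over all genes). Cdkn1a, which encodes the CDK inhibitor p21, was at 580.4, 486, 530.3, 531, and 686 CPM with 0% RPS and 311, 332, 274, 453, and 386 CPM with 10% RPS. Btg2, an antiproliferative gene induced by p53, was at 219.6, 162, 247, 238, and 187 CPM with 0% RPS and 108, 99.8, 117, 124, and 149.6 CPM with 10% RPS. Gadd45a, a growth arrest gene induced by DNA damage, was at 67.5, 56.6, 77.0, 99.4, and 95.8 CPM with 0% RPS and 42.3, 40.3, 40.3, 49.2, and 43.3 CPM with 10% RPS. In each of the 3 genes all mice fed 10% RPS lay below all mice fed 0% RPS, as 3.2% of all tested genes did. The log2 fold changes were -0.68 ± 0.13, -0.82 ± 0.16, and -0.88 ± 0.19 (SE), with edgeR adjusted p of 0.0251, 0.0251, and 0.0267. All 3 lost the call when the change was tested against 1.5-fold, and when 4, 5, and 7 of the 20 mice, respectively, were left out in turn.

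At the lower doses the estimates of these 3 genes were also below 0 and did not pass. Cdkn1a was at 483, 446, 405, 529, and 417 CPM with 2% RPS and 465, 486, 332, 422, and 379.7 CPM with 5% RPS, where mouse 2 was level with the lowest control. Btg2 was at 218, 198, 112, 128, and 126 CPM with 2% RPS and 119, 141, 132, 124, and 122 CPM with 5% RPS. For Btg2 the 5% group lay wholly below the 0% group (log2 fold change -0.72, edgeR adjusted p = 0.0597), as 2.04% of all tested genes did. Gadd45a was at 56.5, 58.4, 54.0, 59.3, and 77.5 CPM with 2% RPS and 57.8, 105, 48.7, 55.2, and 50.6 CPM with 5% RPS, where mouse 2 stood above the controls. The linear trend over dose, called for 1.11% of all genes, was called for all 3 by edgeR (adjusted p = 0.0275, 0.0364, and 0.0405).

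**Figure D5:**
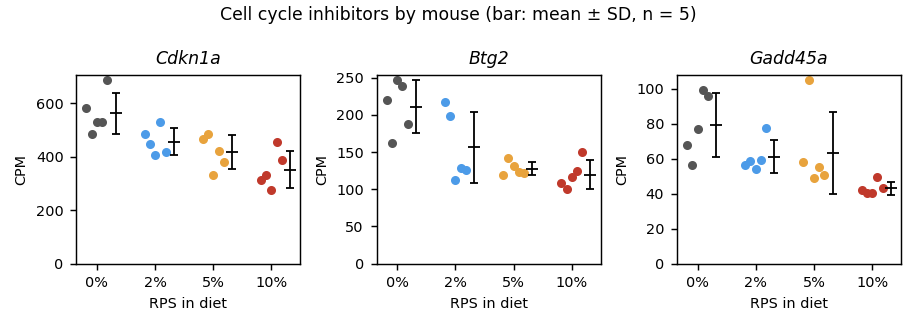
CPM in each mouse (dots, 5 per diet) for the cell cycle inhibitors Cdkn1a, Btg2, and Gadd45a, with the mean and SD of each diet as a bar. In all 3 genes the 10% group lies below the 0% group, and Cdkn1a spans 274 to 453 CPM with 10% RPS against 486 to 686 CPM without RPS.

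Wider lists of the same pathways, which leave out the 44 genes, were read in the same way. Of 62 other replication genes, edgeR called 0 with 10% RPS, 10 (16.1%) had an unadjusted p under 0.05 in the upward direction and 0 downward, and 56 had an estimate above 0, with a median log2 fold change of 0.18. Among all tested genes, 9.74% were upward and 9.75% downward at this p, 50.9% had an estimate above 0, and the median was 0.0041. At the lower doses fewer of the 62 were upward at this p, with 33 above 0, 1 upward, and a median of 0.02 with 5% RPS (6.74% of all genes upward), and 46, 1, and 0.07 with 2% RPS (2.58% of all genes upward). In the linear trend, 12 of the 62 (19.4%) rose and 0 fell at an unadjusted edgeR p under 0.05. Among all genes 9.37% rose and 9.47% fell at this p, and 0 of the 62 passed after adjustment. Gins3, a subunit of the GINS complex, had the lowest adjusted p of these (log2 fold change 0.52 ± 0.14, SE, adjusted p = 0.0578), and in 1 of the 62, Gins3 itself, all mice fed 10% RPS lay above all controls, near the 1.68% of all tested genes. Rpa1, which coats single-stranded DNA, had a log2 fold change of 0.30 (adjusted p = 0.0706). Of 72 other mitosis genes, edgeR called 0, 57 had an estimate above 0, and the median was 0.15. At an unadjusted p under 0.05, 6 (8.33%) were upward, below the 9.74% of all genes, and 0 downward. Prc1, which bundles the midzone of the spindle, had the largest estimate among those 6 at 0.70 ± 0.27 (SE, adjusted p = 0.161). Of 35 cyclin, CDK, RB, and E2F genes, edgeR called 0 with 10% RPS at a 1.5-fold change, with 3 upward and 2 downward at an unadjusted p under 0.05. Rbl2, which encodes the RB relative p130 that represses cell cycle genes in resting cells, had an adjusted p of 0.0348 at a log2 fold change of 0.51, under 1.5-fold, and rose in the linear trend (adjusted p = 0.0389). It was at 13.0, 17.7, 13.1, 14.7, and 13.1 CPM with 0% RPS and 23.4, 22.5, 21.5, 17.0, and 17.7 CPM with 10% RPS, where mouse 4 of the 10% group lay among the controls and mouse 5 was level with the highest of them. Mybl1, a MYB factor that is also a germinal center gene, rose in the trend (adjusted p = 0.0375) and with 10% RPS had a log2 fold change of 1.02 (adjusted p = 0.0554). It was at 2.21, 3.27, 1.54, 2.38, and 0.947 CPM with 0% RPS and 6.48, 3.33, 4.05, 2.31, and 4.76 CPM with 10% RPS, with only mouse 4 among the controls.

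Markers of the cells in the tissue moved beside these genes, and their part in the results above was not tested. Epcam, a marker of epithelium, was at 1521 to 2125 CPM in all 20 mice, which fits the labelled tissue, and Krt20, of surface cells, at 1703 to 3670.2 CPM. Among all tested genes with 10% RPS, 50.9% had an estimate above 0, 9.74% were higher and 9.75% lower at an unadjusted edgeR p under 0.05, and 0.547% passed higher and 0.495% lower, and the marker counts stand beside these shares. Of the 11 B cell markers, 11 had an estimate above 0 with 10% RPS, 0 had an unadjusted p under 0.05, and 0 passed by edgeR. Their median log2 fold change was 1.92, with a median SE of 1.24. The summed B cell level was 55.7, 362, 11.3, 34.2, and 11.8 CPM with 0% RPS and 384, 24.8, 509, 426, and 467 CPM with 10% RPS. With 2% RPS it was 13.0, 7.37, 607, 69.1, and 17.9 CPM, and with 5% RPS 125.7, 14.3, 217.5, 244, and 15.8 CPM. Of the 10 germinal center markers, 10 had an estimate above 0, 4 had an unadjusted p under 0.05 and 0 passed by edgeR, with summed levels of 206 to 260.1 CPM against 156 to 246 CPM. This sum was 156 CPM in mouse 5 on 0% RPS and 193 CPM in mouse 2 on 2% RPS. The summed B cell levels of these mice were only 11.8 and 7.37 CPM, so the germinal center list did not follow the B cell level there. Of the 9 T cell markers, 7 had an estimate above 0 with a median log2 fold change of 0.45, and 0 passed by edgeR, with summed levels of 17.0 to 61.8 CPM with 10% RPS against 23.4 to 55.9 CPM. The T cell gene Cd3e (1.29 to 5.06 CPM with 10% RPS, 2.89 to 6.17 CPM with 0% RPS) and the stem cell gene Lgr5 (9.15 to 13.4 CPM and 8.15 to 11.4 CPM) overlapped between the groups. Of the 11 crypt base markers tested, 10 had an estimate above 0 and 0 passed, with no unadjusted p under 0.05 by edgeR. Of the 8 smooth muscle markers, 8 had an estimate above 0 with a median log2 fold change of 0.61, 5 were higher at an unadjusted p under 0.05, and 1 passed (Actg2, 1.28), and Myh11 was at 1278 to 2032 CPM against 735 to 2342 CPM. Of the 7 goblet cell markers, 7 had an estimate below 0 with a median of -0.53, 5 were lower at an unadjusted p under 0.05, and 1 passed (Zg16, -0.84). Of the 9 surface cell markers, 5 had an estimate above 0 and 4 below, with a median of 0.01. The 3 that passed were higher, namely Slc26a3 at 0.61, Saa1 at 1.60, and Ms4a10 at 1.56, while Car1 (-0.43), Aqp8 (-0.58), and Guca2a (-0.31) were lower at an unadjusted edgeR p under 0.05 and did not pass (adjusted p = 0.0956, 0.114, and 0.107). The summed surface cell level was 37417 ± 2129 CPM with 0% RPS and 30623 ± 5770.2 CPM with 10% RPS (SD, n = 5). From 0 to 10% RPS, the lowest and highest mouse moved from 2011 and 3130.2 to 1130.4 and 1754 CPM for the goblet cell gene Zg16, and from 245 and 395 to 380.3 and 1004 CPM for the smooth muscle gene Actg2. They moved from 916 and 1337 to 1516 and 2459 CPM for the chloride exchanger Slc26a3, from 57.1 and 149.6 to 134 and 422 CPM for the acute phase gene Saa1, and from 0.504 and 1.63 to 1.99 and 3.23 CPM for Ms4a10. Of the T cell (9 genes), myeloid (7), epithelial (10), and fibroblast (7) markers tested, edgeR called 0 with 10% RPS, and 0, 1, 0, and 3 of them were higher and 0, 0, 4, and 2 lower at an unadjusted p under 0.05. An estimate above 0 was found for 7 of the 7 myeloid markers, 1 of the 10 epithelial markers, and 5 of the 7 fibroblast markers. Their median log2 fold changes were 0.32, -0.16, and 0.28, respectively.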

How the data were processed

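RNA from the cecum of 20 mice was made into stranded mRNA libraries and sequenced from 1 end. The authors used the CLC Genomics Workbench 20.01 and the GRCm39 assembly, and deposited unnormalized counts per gene. Which annotation they counted on, whether strand was used, and how multimapping reads were treated is not given in the sources used here. Mice were assigned to diets by the labels and numbered 1 to 5 within a diet, and no source says that they shared or did not share cages or litters. Gene names, positions, and exon lengths came from GENCODE mouse release 39, in which all 44 genes were found.

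Genes were filtered with filterByExpr (minimum count 10, minimum total 15), leaving 15348 genes. After TMM scaling, edgeR 4.0.16 in R 4.3.3 fitted 1 quasi-likelihood model of the 4 diets (robust empirical Bayes) to all 20 mice. A separate model of the same kind, with the RPS percentage as a number, gave the linear trend. The study's own thresholds, an adjusted p of at most 0.05 and a fold change of at least 1.5, marked genes past the threshold, and the trend and the test over any diets had no fold change threshold. CPM is scaled by TMM, and log2 CPM used a prior count of 2. The model of the 4 diets was tested on simulated data for 10% against 0% RPS with 15348 genes. There 78 of 100 simulated 2-fold changes and 100 of 100 simulated 4-fold changes were found, with 4 false calls. DESeq2 1.42.0 was an alternative test. Correlations used scipy 1.17.1, and permutation p of correlations came from 100000 permutations. Promoter letters were read from the GRCm39 genome.

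TMM factors were between 0.916 and 1.07, and mitochondrial genes took 9.00 to 15.4% of counts. The smallest level that 3 counts can show was 0.190 CPM in the shallowest library, and such limits cover counting error only. To look for duplicate libraries, counts were compared within diets, and none of the 40 pairs agreed within sampling noise (chi-square per degree of freedom from 13.6 to 136).

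The 44 genes and all other lists were chosen with earlier results of these data known. All 44 genes were to be accounted for, and values in every mouse were given for genes past a threshold, for Cdt1, Gmnn, Mki67, Top2a, Pcna, Mcm2, Ccnb1, and Ccnd1 by role, and for the 2 genes of each role with the smallest p over the diets. Genes of the wider lists were named with values where they passed a threshold, at most 10 by smallest p, as were 1 defining marker for 5 of the cell types and markers past a threshold. Some markers and 1 of the 11 correlations are not reported here. Mcm6, Rrm1, Tyms, Ube2c, Cdc20, Gins3, Rpa1, Prc1, Gadd45b, Car1, Aqp8, and Guca2a were named after their values were seen. The alternatives were other scalings, filters, and tests, a fit of only the 2 diets compared, no fold change threshold, a test against 1.5-fold with glmTreat, the rank of the dose, immunoglobulin segments left out, other prior counts, medians in place of means, and each mouse left out in turn.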

Additional observations from a re-analysis of the deposited data

Results flagged for a closer look

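In 10 of 216 groups of 5 mice, 1 mouse lay far from the other 4 by Dixon's criterion (gap over range above 0.71), where chance alone gives about 1 in 20, or 10.8. Mouse 1 on 2% RPS was high in 4 mitosis genes, with Ccna2 at 49.4 CPM (others 30.9 to 35.3), Bub1b at 25.2 CPM (others 18.6 to 20), Tpx2 at 28.5 CPM (others 19.7 to 21.7), and Cenpf at 23.0 CPM (others 14.0 to 16.3). Mouse 3 on 2% RPS was high in Ccnd1 at 26.5 CPM (others 17.7 to 19.7), low in Tyms at 19.9 CPM (others 26.5 to 27.3), and high in the log2 ratio of Cdt1 to Gmnn at -2.57 (others -3.70 to -3.61). Mouse 3 on 10% RPS was low in Pcna at 88.6 CPM (others 113 to 122). Gadd45a was high in mouse 5 on 2% RPS at 77.5 CPM (others 54.0 to 59.3) and in mouse 2 on 5% RPS at 105 CPM (others 48.7 to 57.8).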

How the results depend on the processing

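Of 305 results under the alternatives other than leaving out a mouse, 283 counted as unchanged, and of 560 with 1 mouse left out, 501 did. For a gene, unchanged meant the same direction and the same side of the threshold. Differences of scores near 0 could count as unchanged with a change of sign. The module score with 5% RPS did so, at -0.034 to 0.083 against 0% RPS with 1 mouse left out. Tested against a 1.5-fold change, 0 of the 44 genes passed with 10% RPS, and Cdt1 kept a log2 fold change of 0.87 without the call. With DESeq2, 1 gene (Cdt1) was called in the trend and 1 over any diets. Rbl2 and Mybl1 did not pass with 10% RPS in 8 and 7 of 10 alternatives, respectively, and passed in the others. In 19 and 16 of the 20 fits with 1 mouse left out they also did not pass, and they passed in the rest. Leaving out 1 mouse gave 0 to 1 genes with 10% RPS and 0 to 1 in the trend. Cdt1 ranged from 0.81 to 0.97 and lost its call without mouse 1, 3, 4, or 5 on 0% RPS or mouse 1, 2, 3, or 5 on 10% RPS, and the trend gained Cdt1 without mouse 3 on 2%, mouse 4 on 5%, or mouse 4 on 10% RPS. With 1 mouse left out, estimates near 0 changed sign for Gmnn (-0.073 to 0.091), Pcna (-0.045 to 0.12), Ccnb1 (-0.16 to 0.11), Ccnd1 (-0.055 to 0.23), and E2f1 (-0.14 to 0.11). The log2 ratio of Cdt1 to Gmnn then ran from 0.23 to 0.57 above 0% RPS with 2% RPS and from 0.10 to 0.31 with 5% RPS. Estimates that kept their sign also moved, for Top2a (0.20 to 0.42), Kif20a (0.22 to 0.46), Mcm2 (0.0018 to 0.14), and E2f2 (-0.26 to -0.062). Scaled by library size alone, which moved the median of all genes by 0.089 (log2), Gmnn was at 0.065, Ccnb1 at 0.068, and E2f1 at 0.048. Ccnb1 was also at 0.0013 without a filter, 0.0035 without immunoglobulin segments, and 0.00011 with only the 2 diets. With diet means subtracted, the r of Mki67 was -0.13 with Myh11. Without the 2 farthest mice it was 0.20 with Epcam and 0.47 with Myh11 (permutation adjusted p = 0.179), and 1 of the 11 pairs passed. For these changes the cause was not tested. No paired analysis was possible because mice of different diets share no number in their labels. Depth limits the precision of Cdt1 (22 to 120 reads per mouse) and of Gins2 (14 to 63).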

Other observations

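The growth arrest genes did not all move in the direction of Cdkn1a, Btg2, and Gadd45a. With 10% RPS the INK4 inhibitors Cdkn2c and Cdkn2d both had a log2 fold change of 0.28 (adjusted p = 0.206 and 0.215), Cdkn1b, which encodes p27, had 0.13 (adjusted p = 0.557), and Btg1, the relative of Btg2, had -0.07 (adjusted p = 0.822), none of which passed by edgeR's quasi-likelihood test. Myc, a driver of growth, was at 27.9 ± 8.22 CPM with 0% RPS and 19.0 ± 3.9 CPM with 10% RPS (SD, n = 5), a log2 fold change of -0.56 (edgeR adjusted p = 0.253). E2f4, the repressor partner of p130, was at 77.7 ± 15.1 and 60.6 ± 1.88 CPM (SD, n = 5), with all mice fed 10% RPS below all controls, as in 3.2% of all tested genes, and a log2 fold change of -0.36 (edgeR adjusted p = 0.206). These genes were chosen after their values were seen.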
